A study of Mus musculus with 4 samples.

Results

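The BCL2 family of survival and death genes was followed through the immune cells of mouse melanomas, across every cell type and between tumors given a control preparation and tumors given a glucocorticoid (GC). The 10 genes were listed by name, out of 32285 genes measured: Bcl2, Bcl2l1, Mcl1, Bcl2a1b, Bcl2l11, Bmf, Bbc3, Bax, Bak1 and Bcl2l15. Single cell RNA sequencing was performed on live CD45+ cells sorted from 20967 melanomas. The line was derived on C57BL/6 from a mouse model with the allele Nras+LSL-G12D, which a melanocyte Cre that tamoxifen switches on (Tyr::CreERT2+/o) releases. Hosts were wild type C57BL/6 mice, injected into the skin. Tumors of 5 mice received topical control cream and tumors of 5 mice received topical clobetasol propionate, a potent GC, and cells were taken 4 days after treatment. The age of the mice was not given in the sources used here. All mice carried this 1 tumor line. Each tumor had its own hashtag, and the tumors of a group shared 1 droplet channel, so that treatment and channel cannot be told apart. Of 4108 cells, 3803 came from control tumors and 305 from GC tumors.

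The BCL2 family decides whether a cell keeps its mitochondria intact. Bcl2, Bcl2l1 (Bcl-xL), Mcl1 and Bcl2a1b (A1) encode proteins that hold death in check, Bcl2l11 (Bim), Bmf and Bbc3 (Puma) encode BH3-only proteins that bind and disable them, and Bax and Bak1 encode the effectors that open the outer mitochondrial membrane. Bcl2l15 encodes a less studied relative, Bfk. Resting lymphocytes are known to lean on Bcl2 and neutrophils, which live briefly, on Mcl1, and in immature lymphocytes GCs are known to kill through Bim and Puma, whereas mature neutrophils outlive their usual span in the presence of a GC.

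Bcl2a1b is 1 of 3 near-identical copies on chromosome 9, and their sequences are shown because they limit what its values mean. In GRCm38, Bcl2a1b (ENSMUSG00000089929) lies at chr9:89199209-89207827 on the plus strand, Bcl2a1a at chr9:88956900-88962419 on the plus strand and Bcl2a1d at chr9:88723285-88731914 on the minus strand. Their coding sequences are 516 bases long and differ at 12 positions, so that 97.7% of positions are the same. The first 120 coding bases, 5′ to 3′, hold 7 of these positions, which are in capitals:
Bcl2a1b: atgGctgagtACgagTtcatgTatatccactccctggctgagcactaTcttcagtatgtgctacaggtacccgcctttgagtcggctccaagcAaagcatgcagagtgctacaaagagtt
Bcl2a1d: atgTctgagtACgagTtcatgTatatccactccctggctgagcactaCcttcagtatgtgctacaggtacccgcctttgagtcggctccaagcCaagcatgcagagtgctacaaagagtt
Bcl2a1a: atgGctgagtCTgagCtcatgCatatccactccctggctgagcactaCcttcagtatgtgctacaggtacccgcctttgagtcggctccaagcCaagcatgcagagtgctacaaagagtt
Of the 90-base windows along the Bcl2a1b transcript, the length of a read, 36.1% were also found in another copy. The share was 61.6% for Bcl2a1d and 47.0% for Bcl2a1a. Reads from shared windows cannot be given to 1 copy, so Bcl2a1b values are uncertain and are set beside the other copies below.

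Levels are unique molecular identifiers (UMIs, each marking 1 captured RNA molecule) per 10000 UMIs of a cell, averaged over the cells of a class in a tumor. The gene models used were those of GRCm38, in which Bcl2 lies at chr1:106538178-106714274 on the minus strand, Bcl2l1 at chr2:152780668-152831728 on the minus strand, Mcl1 at chr3:95658788-95663176 on the plus strand, Bbc3 at chr7:16308393-16318205 on the plus strand and Bcl2l15 at chr3:103832601-103854618 on the plus strand. Other annotated genes overlap Bcl2, Bcl2a1b, Bax, Bak1 and Bcl2l15, and reads in the overlaps cannot be told apart where the strand is shared. The library captures 3′ ends and reads in introns were counted, so a level is compared between cell types or treatments and never between genes. Control tumors held 2735708 to 9869474 UMIs and 347 to 1250 cells each, and GC tumors 139195 to 1235264 UMIs and 18 to 111 cells. The median cell held 7440 UMIs in control tumors and 9163 in GC tumors, and no barcode was found in both channels. Cell types are the deposited clusters, of which there were 16. Neutrophil markers summed to between 318 and 570 in the neutrophils of control tumors and to at most 0.266 in lymphocytes, where T cell markers summed to between 21.8 and 25.9. The GC response gene Fkbp5, a direct GC receptor target, rose in each class compared below, by 1.81 ± 0.15 in lymphocytes and 2.53 ± 0.67 in neutrophils on the log2 scale (SE; limma adjusted p = 6.54e-05 and 0.0332, edgeR adjusted p = 3.22e-07 and 0.058).

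In control tumors, the pro-survival genes divided the leukocytes between them. Bcl2 was a lymphocyte transcript, at 17.6 ± 3.82 UMIs per 10000 in NK cells (SD, n = 4 tumors) and 15.4 ± 1.93 in the CD4 cluster (n = 5), with overlapping ranges. CD8 T cells followed at 6.62 ± 1.48, apart from both. No other class with at least 10 cells in 3 tumors averaged more than 0.553, the level in monocytes. Tregs, regulatory T cells, stood with the myeloid cells and not with the other T cells, at 0.350 ± 0.113. Neutrophils (0.0503) and the DC 1 cluster of dendritic cells (0.0465) had the lowest levels, with overlapping ranges.

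Bcl2l1 was highest in a pair of classes with little Bcl2. Tregs held 4.37 ± 0.90 UMIs per 10000 and neutrophils 3.82 ± 0.74, which overlapped, and CD8 T cells came next at 1.46 ± 0.32 with a range apart from both. From CD8 T cells down to the DC 2 cluster, at 0.330, each class overlapped its neighbour.

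Mcl1 graded the myeloid cells. It fell in order from neutrophils (29.4 ± 1.32) to eosinophils (19.0 ± 2.20), to monocytes (13.2 ± 1.62) and tumor-associated macrophages (TAMs, 12.8 ± 0.69), and to DC 2 (9.06 ± 1.34) and DC 1 (6.11 ± 1.6). Monocytes overlapped TAMs and DC 2 overlapped DC 1, and the other steps were apart. The 4 lymphoid classes in this order lay lowest, between 2.23 and 3.05, and each overlapped its neighbour. Eosinophils were shallow, with 824.5 to 898 UMIs for the median cell of a control tumor. Neutrophil markers summed to 37.7 to 71.9 in control eosinophils, and eosinophil markers to 9.19 to 12.9. The part of depth or of neutrophil RNA in eosinophil levels, here and below, was not tested.

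Bcl2a1b was highest in DC 1, at 7.44 ± 0.94 UMIs per 10000, apart from eosinophils at 3.54 ± 0.54. Neutrophils (3.33 ± 0.78), CD8 T cells (2.61 ± 0.24) and the remaining classes then ran down to NK cells at 0.490, each overlapping its neighbour. The plot of the members by class gives the pooled levels.

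**Figure D1:**
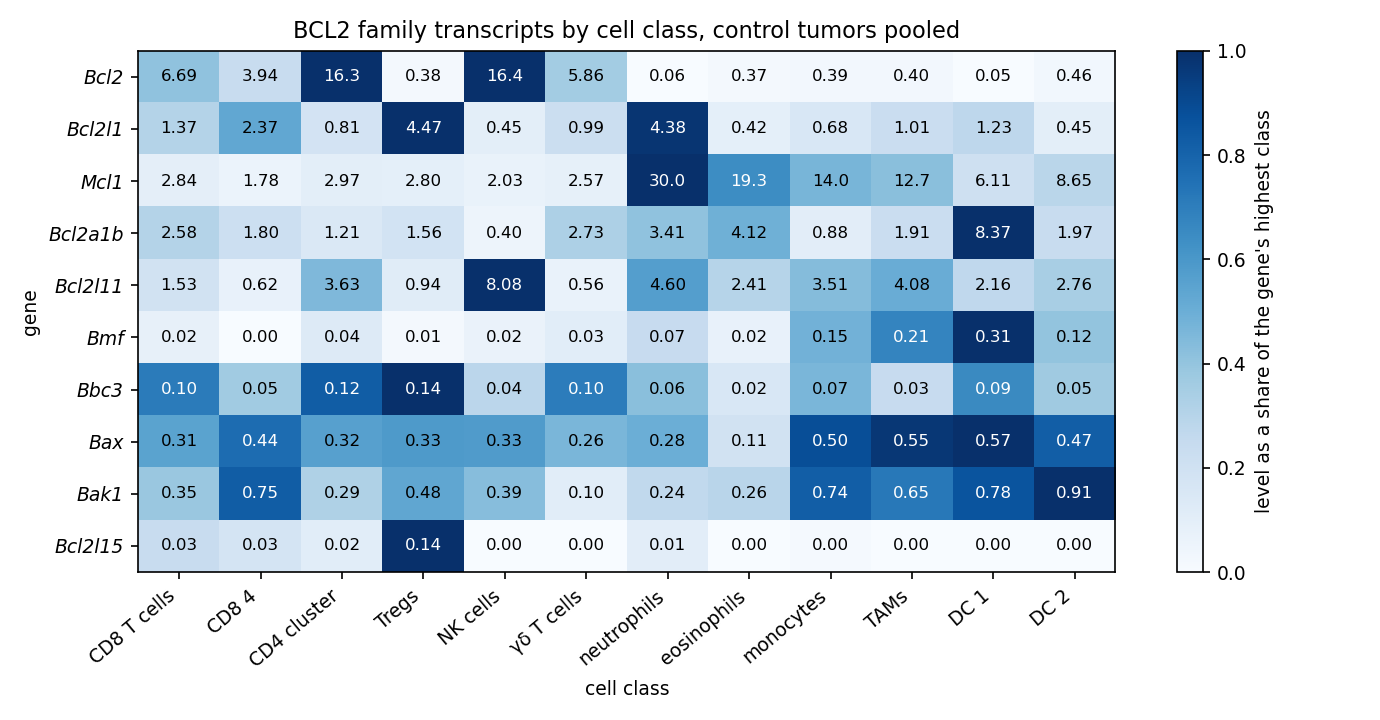
Pooled level of each of the 10 genes (rows) in the 12 classes of control tumors (columns), in UMIs per 10000 as the printed value, shaded by its share of the highest class of that gene. Bcl2 is darkest in NK cells (16.4) and the CD4 cluster (16.3), and pale in Tregs (0.378).

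The BH3-only genes had other orders. Bcl2l11 was highest in NK cells, at 8.39 ± 1.47 UMIs per 10000, apart from neutrophils at 4.23 ± 1.35 and TAMs at 4.06 ± 0.86, which overlapped. Among classes with at least 10 cells in 3 control tumors, Tregs had the lowest Bcl2l11, 0.928 ± 0.104, apart from CD8 T cells at 1.49 ± 0.17. Pooled control γδ T cells, too few for this order, were lower, at 0.560 (17 UMIs) against 0.937 in pooled Tregs. Bmf was highest in DC 1 (0.268 ± 0.094), overlapping TAMs (0.202 ± 0.076), and averaged at most 0.0279 in the lymphoid classes of this order. Bbc3 was scarce everywhere, between 0.0382 and 0.122, with overlap at every step.

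The effectors were also scarce. Bax ranged from 0.106 in eosinophils to 0.545 in TAMs and every neighbour overlapped. Bak1 formed an upper group of DC 1 (0.863), DC 2 (0.790), monocytes (0.713) and TAMs (0.657), apart from Tregs (0.408) and the classes below them. Bcl2l15 was found mainly in Tregs, at 0.141 ± 0.076, overlapping CD8 T cells at 0.0286, and no UMI of it was seen in 723 control TAMs, which allows a share of cells with a UMI of up to 0.415%.

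The clusters within CD8 T cells differed as well. Pooled over control cells, Bcl2 was at 7.91 UMIs per 10000 in the cluster CD8 1 and 8.26 in CD8 3, and at 4.33 in CD8 2 and 3.94 in CD8 4. Bcl2l1 was lower in the first pair than in the second, at 0.931 and 1.07 in CD8 1 and CD8 3 and at 2.14 and 2.37 in CD8 2 and CD8 4. Bcl2l11 was highest in CD8 2 (2.40) and between 0.619 and 1.07 in the other 3. These clusters were made from the same transcripts, so no test was run between them.

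Lymphocytes and neutrophils were next set side by side within the 5 control tumors, as a description without a test because the clusters rest on these same cells. Lymphocytes here are the CD8, CD4, Treg, NK and γδ T cell clusters. Bcl2 was 6.63 ± 1.01 UMIs per 10000 in lymphocytes and 0.0503 ± 0.0526 in neutrophils, a difference within a tumor of 5.54 ± 0.52 on the log2(level + 0.1) scale (SD, n = 5). The lowest tumor for lymphocytes, 5.11, lay far above the highest for neutrophils, 0.125. Mcl1 went the other way, at 2.76 ± 0.14 in lymphocytes and 29.4 ± 1.32 in neutrophils, a log2 difference of -3.37 ± 0.07.

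Bcl2l11 was the third member with ranges apart, at 1.97 ± 0.21 in lymphocytes and 4.23 ± 1.35 in neutrophils (log2 difference -1.01 ± 0.49). Bcl2l1 and Bcl2a1b were higher in the neutrophils of all 5 tumors, with log2 differences of -0.81 ± 0.35 and -0.68 ± 0.43, but their ranges over tumors overlapped at full depth. The mean of the deposited log values gave smaller log2 differences, of 1.61 for Bcl2, -0.43 for Bcl2l11, -0.34 for Bcl2l1 and 0.05 for Bcl2a1b, whose sign changed, and -3.14 for Mcl1. With cells thinned to 2000 UMIs, 6 members had ranges apart, with Bcl2l1 (-0.92 ± 0.26) and Bcl2a1b (-0.75 ± 0.47) higher in neutrophils and Bcl2l15 (0.59 ± 0.16) in lymphocytes beside the first 3. The effectors Bax (-0.01 ± 0.33) and Bak1 (0.35 ± 0.80) overlapped and Bmf, Bbc3 and Bcl2l15 were below 0.2 UMIs per 10000. Of all 5791 genes that passed that minimum, 46.4% were higher in lymphocytes with ranges apart and 17.0% were higher in neutrophils with ranges apart, so members with ranges apart are not unusual between these unlike cells.

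**Figure D2:**
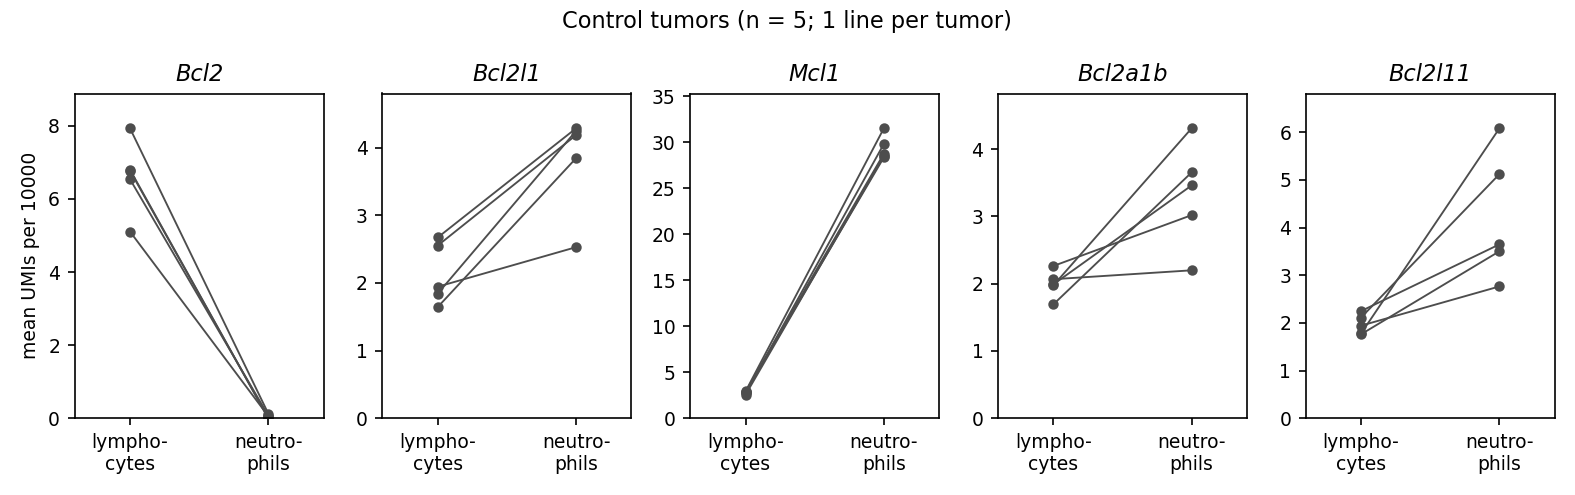
Mean UMIs per 10000 (vertical axis, starting at 0) of 5 members in lymphocytes and neutrophils of the 5 control tumors, with a line joining both values of 1 tumor. Bcl2 falls and Mcl1, Bcl2l11, Bcl2l1 and Bcl2a1b climb from lymphocytes to neutrophils along all 5 lines.

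The effect of GC was then asked of each class in turn, with the tumor as replicate and limma fitted across all genes of the class. Changes are log2 fold changes of GC over control on log2(level + 0.1), which understates the change of scarce genes. The p-values measure the spread between tumors of separate mice and leave aside any difference between the channels.

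In lymphocytes, Bcl2 and Bcl2a1b, both pro-survival genes, and Bbc3, a pro-death gene, rose with GC. Bcl2 was at 6.80, 6.54, 7.94, 6.78 and 5.11 UMIs per 10000 in the 5 control tumors and at 11.7, 12, 10.6 and 11.1 in the 4 GC tumors with at least 10 lymphocytes. Every GC tumor lay above every control tumor. The change was 0.78 ± 0.11 (SE), or 1.71-fold (limma adjusted p = 0.00114). The fifth GC tumor, left out with 9 lymphocytes, was at 12.7.

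Bcl2a1b was at 1.97, 1.99, 2.07, 1.69 and 2.26 in control lymphocytes and 4.65, 2.92, 3.53 and 5.16 in GC lymphocytes, again without overlap, and changed by 0.96 ± 0.16 (limma adjusted p = 0.0027). The left-out GC tumor was at 1.99, within the control range, and with it the call was lost (adjusted p = 0.0522). Bcl2a1d, the closest copy, changed by 0.57 without passing the test (limma adjusted p = 0.0786). The sum of the 3 copies ran from 2.72 to 3.78 in control tumors and from 4.50 to 8.01 in GC tumors.

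Bbc3 was at 0.0928, 0.0928, 0.120, 0.0943 and 0.114 in control lymphocytes and at 0.629, 0.405, 0.348 and 0.317 in GC lymphocytes. These groups did not overlap, and the change was 1.34 ± 0.21, or 2.53-fold (limma adjusted p = 0.00197). Bbc3 passed the minimum level only through its GC values, and with cells thinned to 2000 UMIs the change of 1.13 was no longer called (adjusted p = 0.353).

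Leaving aside Bbc3, which could pass the minimum only by being higher with GC, 2 of 7 members tested in lymphocytes rose and none fell, beside 3.82% of all genes tested that rose and 5.7% that fell. Mcl1 was at 2.54 to 2.91 in control and 1.66 to 2.40 in GC tumors, without overlap, yet its change of -0.38 ± 0.12 missed the threshold (limma adjusted p = 0.0691). Bcl2l11 (0.47 ± 0.20) and Bak1 (-0.76 ± 0.29) also missed it, at adjusted p = 0.18 and 0.129. Bcl2l1 (0.06 ± 0.29) and Bax (0.00 ± 0.17) had changes within their error, with intervals (95%) from -0.58 to 0.69 and from -0.36 to 0.37.

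The makeup of the lymphocytes moved with these values. Tregs, which hold little Bcl2 and much Bcl2l1, were 27.0% of control lymphocytes and 9.59% of GC lymphocytes, and CD8 T cells were 48.9% and 73.3%. Genes listed as markers of other cells moved too, in both directions. Whether the lymphocytes made these transcripts themselves or held RNA of other cells was not tested. Dendritic cell markers summed to 0.481 to 0.770 in control and 0.787 to 2.42 in GC lymphocytes (0.152 to 0.571 and 0.663 to 2.30 in CD8 T cells), with Flt3, Clec9a and Siglech at 0 in GC cells, and DC 1 is the class with the most Bcl2a1b. Monocyte markers summed to 11.0 to 15.6 and 4.25 to 5.73 (12.4 to 18.4 and 4.95 to 5.68 in CD8 T cells), and TAM markers to 0.768 to 1.17 and 0.0755 to 0.300. Cells with at least 2 markers of another class were 55.6% of control and 34.2% of GC lymphocytes, and 73.8% and 39.3% of CD8 T cells. Without such cells Bcl2 rose by 1.38, Bcl2a1b by 1.04 and Bbc3 by 1.66 in lymphocytes, all called. That step took out 649 of 880 control CD8 T cells and 42 of 107 with GC, which widened the gap in CD8 share between groups. The part of this makeup in the rises was not tested. Without the CD4, Treg and CD8 4 clusters, Bcl2 still rose by 0.69, Bcl2a1b by 0.77 and Bbc3 by 1.51, all called.

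In CD8 T cells the 5 control tumors met 3 GC tumors with at least 10 cells. Bcl2 was at 6.56, 7.36, 7.50, 7.60 and 4.08 in control and 15.2, 12.2 and 11.9 in GC tumors. The GC tumors stood above all controls, with a change of 1.00 ± 0.19 (limma adjusted p = 0.0116). The GC tumors left out, with 7 and 9 CD8 T cells, were at 16.3 and 9.40, also above the controls.

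The size of that rise was similar or larger in subsets of the CD8 T cells, but the call was lost in each. In cluster CD8 1 alone it was 0.92 (adjusted p = 0.0975), in CD8 2 alone 1.33 (adjusted p = 0.0765), and without cells holding at least 2 markers of another class 1.47 (adjusted p = 0.365). Bbc3 was at 0.0397 to 0.128 in control and 0.608, 0.547 and 0.353 in GC CD8 T cells and rose by 1.58 ± 0.27 (limma adjusted p = 0.00702). It too passed the minimum only through GC tumors, and without cells holding at least 2 markers of another class its change of 1.87 was not called (adjusted p = 0.105).

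Mcl1 was at 2.80 to 2.93 in control and at 1.67, 2.14 and 2.25 in GC CD8 T cells, lower in every GC tumor. It fell by 0.50 ± 0.13 on the log2 scale at a limma adjusted p of 0.0476, which edgeR on the UMI sums did not call (adjusted p = 0.274). Bcl2a1b, at 2.32 to 2.89 in control and 4.87, 2.93 and 5.48 in GC tumors, changed by 0.70 ± 0.18, which just missed the limma threshold (adjusted p = 0.0513), and edgeR called it (adjusted p = 0.00574). Bcl2l1 changed by 0.28 ± 0.24 by limma and 0.62 by edgeR and passed in neither (limma adjusted p = 0.538, edgeR adjusted p = 0.0561). Leaving Bbc3 aside, 1 of 7 members rose and 1 fell, beside 2.27% of all genes that rose and 2.74% that fell.

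Bcl2l11, which encodes the BH3-only protein Bim, was spread too widely in CD8 T cells to be called. It lay between 1.33 and 1.77 in control tumors and at 1.16, 2.87 and 3.63 in GC tumors, so the lowest tumor of all was a GC tumor. Its change was 0.61 ± 0.28 (limma adjusted p = 0.236). Without GC replicate 2, the tumor at 1.16, the change was 1.08 (adjusted p = 0.000484), and in CD8 2 alone it was 1.00 (adjusted p = 0.0434).

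**Figure D3:**
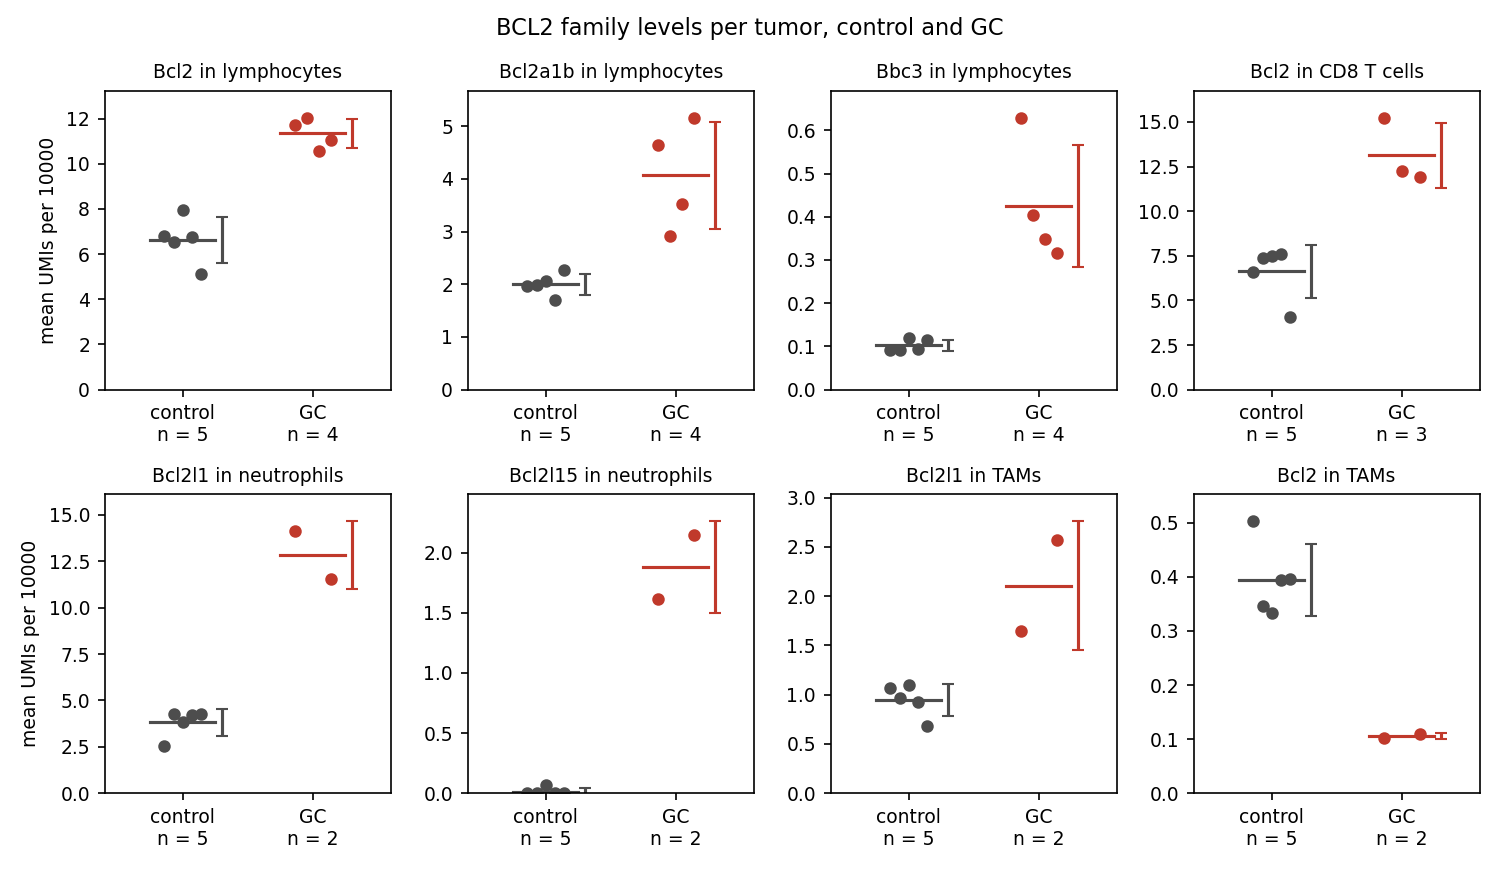
Mean UMIs per 10000 in control (gray) and GC (red) tumors for 8 gene and class pairs, with 1 point for each tumor in the test, a line at the mean and a bar of 1 SD to each side. The GC points lie above all control points in 7 panels and below them for Bcl2 in TAMs (0.101 and 0.109).

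Neutrophils responded in another member of the same subfamily. Bcl2l1 was at 2.53, 4.29, 3.85, 4.19 and 4.25 UMIs per 10000 in control neutrophils (24 to 40 cells a tumor) and at 14.1 and 11.5 in the 2 GC tumors with at least 10 neutrophils (19 and 14 cells). It rose by 1.74 ± 0.27, or 3.34-fold (limma adjusted p = 0.000547, edgeR adjusted p = 0.00357). The remaining GC tumors, with 2, 2 and 7 neutrophils, were at 13.0, 23.5 and 15.6, so all 5 GC tumors lay above all 5 controls. The rise was called in all 17 alternatives. The share of neutrophils with a Bcl2l1 UMI was 42.6% in control and 84.1% in GC tumors, and 32.9% and 76.7% with every cell thinned to 2000 UMIs.

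Bcl2l15 was all but absent from control neutrophils, where 1 of 162 cells held 1 UMI (0.617% of cells). In GC tumors 12 of 44 neutrophils held 71 UMIs (27.3% of cells, 95% exact binomial interval 15.0 to 42.8). Its level was 0 in 4 control tumors and 0.0643 in the fifth, against 1.61 and 2.15 in the 2 GC tumors of the test and 9.24, 2.28 and 4.19 in the others. Thinned to 2000 UMIs, 0 of 149 control cells, which allows up to 2.01%, and 8 of 43 GC cells (18.6%) held it.

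In TAMs, which served as a class that lacks the gene, 0 of 723 control and 1 of 43 GC cells held a Bcl2l15 UMI, at 12883 and 17855 UMIs for the median cell against 4220 and 5882 in neutrophils. The pooled ratio in neutrophils was 187, with a counting interval from 32.5 to 7490 since the control count was 1. The fitted change of 4.15 ± 0.72 (limma adjusted p = 0.00181) depends on the pseudocount, and without GC replicate 3 it was 3.95 and was not called (adjusted p = 0.13). Bcl2l15 passed the minimum only through GC tumors.

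Mcl1, the most neutrophil-rich member, was at 28.4 to 31.5 in control and at 28.3 and 22.5 in GC neutrophils, and its change of -0.22 ± 0.17 was not past the threshold (limma adjusted p = 0.535, 95% interval -0.57 to 0.13). The 3 GC tumors with few neutrophils were at 33.7, 6.97 and 16.9, a wide spread. Bcl2a1b (0.57 ± 0.35), Bcl2l11 (-0.23 ± 0.33), Bax (-0.78 ± 0.62) and Bak1 (-0.35 ± 0.65) did not pass either. Bcl2, Bmf and Bbc3 were below the minimum. Leaving aside Bcl2l15, 1 of 6 members tested rose and none fell, beside 2.09% of all genes that rose and 2.74% that fell. T cell markers summed to 0.0756 to 0.533 in control neutrophils and to 0.154 and 0.465 in the 2 GC tumors. Monocyte markers also overlapped, at 1.28 to 3.78 and at 1.89 and 4.83. TAM markers were lower with GC, at 1.75 to 2.83 and at 0.689 and 1.48. Cells with at least 2 markers of another class were 18.5% of control and 27.3% of GC neutrophils. The part of such transcripts in these changes was not tested.

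TAMs were tested as a second myeloid class, with 5 control and 2 GC tumors (17 and 16 cells). Bcl2l1 was at 1.07, 0.970, 1.1, 0.927 and 0.683 in control and 1.64 and 2.57 in GC tumors, a rise of 1.06 ± 0.21 (limma adjusted p = 0.00522, edgeR adjusted p = 0.00109). Bcl2 was at 0.503, 0.347, 0.333, 0.395 and 0.395 in control and 0.101 and 0.109 in GC tumors and fell by 1.26 ± 0.19 on the log2 scale (limma adjusted p = 0.00164, edgeR adjusted p = 0.0143). The groups did not overlap for either gene. Bcl2 passed the minimum in TAMs only through its control values.

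Both calls were lost when GC tumors with at least 5 TAMs entered (0.66 and -0.76, adjusted p = 0.136 for both), since the tumor that this added was at 0.853 for Bcl2l1 and 0.476 for Bcl2. Markers of other cells moved alongside. Neutrophil markers summed to 0.896 to 1.18 in control TAMs and to 1.93 and 3.63 in GC TAMs, and T cell markers to 0.141 to 0.299 and to 0.0341 and 0.125. Their part in these changes was not tested. Bcl2l11 changed by 0.42 ± 0.19, called by edgeR (adjusted p = 0.0373) and not by limma (adjusted p = 0.137). Mcl1, Bcl2a1b, Bmf, Bax and Bak1 did not pass in either fit. Leaving Bcl2 aside, 1 of 7 members rose and none fell by limma, beside 6.86% of all genes in TAMs that rose and 14.3% that fell.

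**Figure D4:**
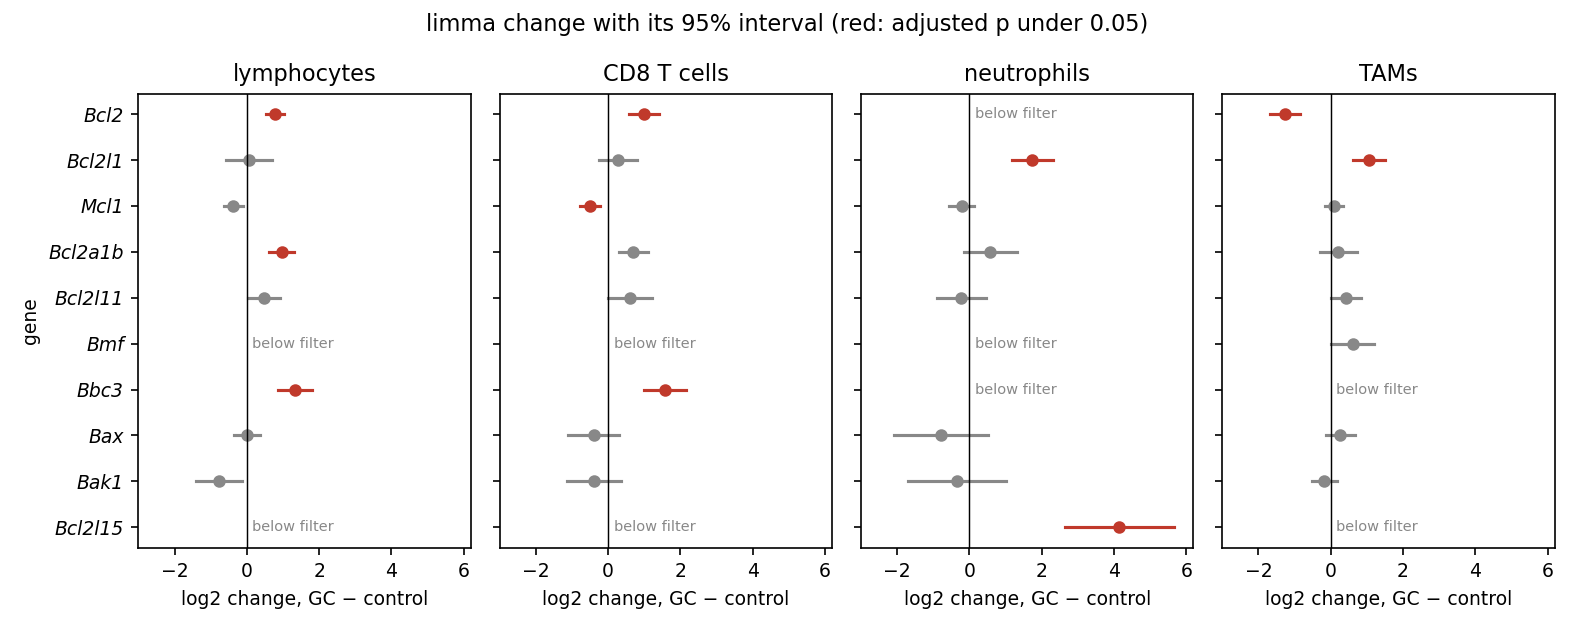
Log2 change of GC over control (horizontal axis) for each member in 4 classes, with its 95% interval as a line and red where the limma adjusted p was under 0.05. Bcl2 lies above 0 in lymphocytes (0.78) and below 0 in TAMs (-1.26), and Bcl2l1 is furthest from 0 in neutrophils (1.74).

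Whether GC changed a member differently in lymphocytes and in neutrophils was tested on the difference of both classes within a tumor, in 5 control and 2 GC tumors. The change of Bcl2l1 was 2.27 ± 0.38 log2 units lower in lymphocytes than in neutrophils (limma adjusted p = 0.0291), and that of Bcl2l15 was 3.29 ± 0.64 lower (adjusted p = 0.046). Bcl2l15 entered this test only through its level in GC neutrophils. Each of these calls was lost in 10 of 16 alternatives, none of which changed the direction. Both were lost with CD8 T cells in place of lymphocytes, with thinned cells, with no filter and without cells holding other markers. Both were also lost without GC replicate 3 or any 1 of control replicates 1 to 4. Leaving out GC replicate 2 lost the call of Bcl2l1, and leaving out control replicate 5 that of Bcl2l15. Tregs, with much Bcl2l1, were a smaller share of GC lymphocytes, and their part was not tested. The Bcl2 change, which was called in lymphocytes and could not be tested in neutrophils alone, differed by 0.85 ± 0.49 and did not pass (adjusted p = 0.454, 95% interval -0.24 to 1.93). Among all genes 0.24% had a higher and 0.719% a lower change in lymphocytes.

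Bcl2l15 in lymphocytes remained below the minimum, but 2 GC tumors stood out. Control lymphocytes were at 0.0352 to 0.0817 and GC lymphocytes at 0.557, 0.0208, 0.339 and 0.0630. Neutrophil markers in those same GC tumors summed to 0.153, 0.0886, 0.218 and 0.0449, highest in the 2 tumors with the most Bcl2l15, although control lymphocytes held 0.192 to 0.266. Their part in the Bcl2l15 values was not tested.

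The other classes had too few GC cells for a test across tumors, so their pooled UMIs are given with counting intervals (95%), which leave out the spread between tumors. In 14 GC Tregs, Bcl2l1, their leading pro-survival transcript, was at 1.51 UMIs per 10000 against 4.47 in control Tregs (ratio 0.338, 0.203 to 0.530). Their Bcl2 was at 1.35 against 0.378 (ratio 3.58, 2.02 to 5.97) and their Bcl2l11 at 2.38 against 0.937 (ratio 2.55, 1.69 to 3.71). Few cells carried these counts, since the 17 Bcl2 UMIs lay in 3 of 14 GC Tregs, of which 0 held one after thinning to 2000 UMIs, a count that allows up to 21.4%. Bcl2l11 lay in 9 of 14 and Bcl2l1 in 11 of 14, or 78.6% against 60.3% of control Tregs, and in 14.3% against 40.9% after thinning.

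In 11 GC γδ T cells Bcl2 was at 15.2 against 5.86 (ratio 2.60, 2.04 to 3.3) and Bcl2l11 at 3.49 against 0.560 (ratio 6.23, 3.27 to 12.2). In 10 GC cells of the CD4 cluster Bcl2, already high, was at 20.9 against 16.3 (ratio 1.28, 1.11 to 1.47) and Bcl2a1b at 3.64 against 1.21 (ratio 3.00, 2.08 to 4.24). Bcl2l1 there was at 2.01 against 0.809 (ratio 2.49, 1.5 to 3.94), but its 21 UMIs lay in 3 of 10 cells, and 30.0% of GC and 28.9% of control cells held one. Only 4 NK cells were recovered with GC, with Bcl2 at 18.8 against 16.4.

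Among myeloid cells, 21 GC monocytes held Bcl2l1 at 4.57 against 0.682 (ratio 6.70, 5.51 to 8.11), and 71.4% against 37.0% of cells had a UMI of it. Of these monocytes 18 were in the cluster Monocytes 1, whose control cells were at 0.877. In 10 GC cells of DC 1 Bcl2l1 had 3 UMIs, or 0.134 against 1.23 (ratio 0.109, 0.0224 to 0.324), the opposite direction. Mcl1 was at 3.45 against 6.11 in DC 1 (ratio 0.565, 0.442 to 0.713) and at 9.99 against 19.3 in 32 GC eosinophils (ratio 0.518, 0.367 to 0.711). The 9 GC cells of DC 2 held Bcl2l11 at 4.57 against 2.76 (ratio 1.66, 1.29 to 2.11).

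Genes that work with the BCL2 family were taken as lists. In lymphocytes, of 5 tested among 15 other BCL2 family genes none rose and 1 fell, Bnip3, which takes part in mitophagy (-1.1 ± 0.19, limma adjusted p = 0.00293). Of 5 tested among 6 inhibitors of apoptosis none rose and 2 fell, Birc2 (cIAP1, -0.78 ± 0.12, adjusted p = 0.00124) and Cflar (c-FLIP, which blocks caspase-8, -0.63 ± 0.17, adjusted p = 0.0359). None of 7 caspase and apoptosome genes, 2 death receptor genes or 11 regulators of the family passed the limma test in lymphocytes. Of all genes tested in lymphocytes, 3.82% rose and 5.7% fell. The median change was 0.16 for the other family genes, -0.34 for the caspase and apoptosome genes, -0.41 for the inhibitors, -0.73 for the death receptor genes and -0.39 for the regulators, beside -0.09 for all genes.

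In CD8 T cells Birc3 (cIAP2) rose by 0.82 ± 0.15 (limma adjusted p = 0.00989) and Vdac1, an outer mitochondrial membrane channel, fell by 1.1 ± 0.27 on the log2 scale (adjusted p = 0.039, edgeR adjusted p = 0.0869), 1 of 5 inhibitors and 1 of 12 regulators tested. Vdac1 passed the minimum in CD8 T cells only through its control values. None of the 5 family, 7 caspase or 2 death receptor genes passed the test there, where 2.27% of all genes rose and 2.74% fell. In neutrophils none of 7 other family genes, 4 caspase and apoptosome genes, 5 inhibitors, 3 death receptor genes and 8 regulators passed by limma. Of all genes in neutrophils, 2.09% rose and 2.74% fell. In TAMs Xiap, a caspase inhibitor, changed by -0.74 ± 0.17 (limma adjusted p = 0.0127), which edgeR did not call (adjusted p = 0.124). Tnfrsf1a, a TNF receptor, rose by 0.57 ± 0.15 (limma adjusted p = 0.0221, edgeR adjusted p = 0.0154). By limma 3 of 10 regulators fell in TAMs, beside 14.3% of all genes, and edgeR called 1 of these 3.

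That gene was Mapk8, the kinase JNK1 (-1.38 ± 0.26, limma adjusted p = 0.00446, edgeR adjusted p = 0.0466). Mapk8 passed the minimum in TAMs only through its control values. The others were Fbxw7, a ubiquitin ligase subunit that marks Mcl1 protein for destruction (-0.65 ± 0.20, limma adjusted p = 0.0389, edgeR adjusted p = 0.0989), and Usp9x, a deubiquitinase that spares it (-0.64 ± 0.16, limma adjusted p = 0.016, edgeR adjusted p = 0.151). No gene of these lists passed the test of the difference between lymphocytes and neutrophils. Of the 6 GC response genes, 3 rose in lymphocytes, 3 in CD8 T cells, 3 in neutrophils and 4 in TAMs by limma. None fell. Of all genes tested, 3.82%, 2.27%, 2.09% and 6.86% rose in these classes. Klf9 in all 4 classes, and Zbtb16 in neutrophils and TAMs, passed the minimum only through GC tumors, so they could only be called as rising.

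Over the 12 classes of control tumors, pooled, the genes whose levels ran most like Bcl2 were Golim4 (Pearson r = 0.968), Mcoln2 (0.960) and Gab3 (0.948), out of 9447 genes searched. For Bcl2a1b they were its own copy Bcl2a1d (0.931), with which it shares reads, Dennd5a (0.889) and Dctn4 (0.874). For Bcl2l15 they were Map6 (0.968), Ncmap (0.965) and Lrrc32 (0.935), which encodes GARP, a surface protein of activated Tregs, all highest in Tregs. The classes share the same tumors and channel, and these values are descriptions.

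In RefSeq promoter windows, from 250 bases before to 50 bases after a gene start, all 10 members were found, with 17 windows. AGAACA, an arm of the palindrome that the GC receptor binds, stood on either strand in none of the 17 and in 19.0% of 32851 windows of this length. The palindrome of this arm, 3 free bases and its reverse complement stood in none of the 17 and in 0.00913% of all. The absence of these letters from so short a window says nothing about binding elsewhere.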

How the data were processed

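Single cell gene expression was measured in live CD45+ cells of 10 tumors, 5 per group, told apart by hashtag within each channel, of which the control was loaded with 17100 cells and the GC with 3500. The authors counted UMIs with Cell Ranger 7.1.0 on mm10, introns included, kept singlets, removed outlier cells and named the clusters in Seurat 5.0.3, per the labels and the study's methods. The deposited values are the natural log of 1 plus UMIs per 10000. Whole UMI counts were recovered from these deposited values by script, and 100% of values came out whole within 0.01.

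Levels were averaged per class and tumor (at least 10 cells), and genes averaging at least 0.2 UMIs per 10000 were tested on log2(level + 0.1) by limma 3.58.1 (trended, robust), with Benjamini-Hochberg adjustment over all genes and a threshold of 0.05. The script was tested on simulated data, where limma made more false calls in TAMs than the threshold allows, so edgeR values stand beside TAM results. Alternatives were edgeR 4.0.16 and DESeq2 1.42.0 on UMI sums, another scaling, pseudocount, filter or cell minimum, the deposited log values, fewer clusters, cells without other markers, each tumor left out and, added after seeing the data, cells thinned to 2000 UMIs and single CD8 clusters. DESeq2 gave 3 member values no adjusted p.

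The members, lists and tests were chosen with earlier results of these data known. Named are all members, up to 4 called genes per list, direction and comparison, and the 3 genes most like Bcl2, Bcl2a1b and Bcl2l15. Counting intervals and floors (3 counts) cover counting error only. A fall in RNA per cell and a change in which cells are present cannot be told apart within a class. Hashtag libraries were not used. Promoter windows come from RefSeq. Analyses used R 4.3.3.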

Additional observations from a re-analysis of the deposited data

Results flagged for a closer look

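Of 49 groups of 4 or 5 tumors looked at, 5 held 1 tumor far from the others, where chance gives about 1 in 20. Bcl2l1 in neutrophils was 2.53 UMIs per 10000 in control replicate 1 (24 cells), against 3.85 to 4.29 in the other controls, and lay on the far side of the controls from the GC tumors. Bbc3 in CD8 T cells was 0.0397 in control replicate 1, against 0.111 to 0.128. The other 3 were scarce transcripts. Bcl2l15 in neutrophils was 0.0643 in control replicate 3 and 0 in the other controls, Bmf in neutrophils was 0.264 in control replicate 2 and at most 0.0708 in the others, and Bmf in lymphocytes was 0.0222 in GC replicate 5 and 0 in the other GC tumors.

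The GC change differed between lymphocytes and neutrophils for 2 members in the limma test of the difference. Bcl2l1 differed by -2.27 and Bcl2l15 by -3.29 log2 units, in 5 control and 2 GC tumors. Bcl2l15 entered that test only through its level in GC neutrophils.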

How the results depend on the processing

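Of 39 member values tested 12 were past the threshold, in comparisons that share cells and so are not independent. The calls of Bbc3, of Bcl2l15 and of Bcl2 in TAMs are among them and passed the minimum only through the group where they were higher. Of all genes, between 0.24% and 14.3% were called in a given direction of a comparison. Over 92 alternative settings 712 member values were recomputed. Of these 638 kept their direction and side of the threshold, 47 lost the call, 27 gained it and none that was called in either fit changed sign, while 46 uncalled values did. Bcl2 in lymphocytes kept its call in 21 of 21 settings (0.69 to 1.38) and Bcl2l1 in neutrophils in 17 of 17 (1.44 to 1.88). Mcl1 in CD8 T cells lost it in 18 of 21, and the remaining losses are named beside the results. The number of genes called moved more, and the cause was not tested. In lymphocytes it was 593, 255 with thinned cells, 1094 with at least 20 cells a tumor and 328 to 804 without 1 tumor. In CD8 T cells it was 309, 151 thinned, 129 in CD8 2 alone, 167 with no filter, 604 and 195 with at least 20 and 5 cells, 190 without cells holding other markers and 135 to 604 without 1 tumor. In neutrophils it was 213, 390 on the deposited log values and 105 to 241 without 1 tumor, lowest without GC replicate 3. In TAMs it was 1270, 735 by DESeq2, 670 by edgeR, 2202 without cells holding other markers and 867 to 2117 without 1 tumor. For the difference between lymphocytes and neutrophils it was 56, 13 thinned, 236 on the deposited log values, 27 with no filter, 161 with a pseudocount of 0.5, 19 without cells holding other markers and 10 to 65 without 1 tumor. The members with ranges apart between lymphocytes and neutrophils were 3, and 6 thinned. Median-of-ratios scaling moved the share of higher calls from 45.3% to 56.8% in CD8 T cells and from 32.4% to 47.7% in TAMs, and edgeR gave 57.4% in lymphocytes (40.1% by limma), 61.5% in CD8 T cells, 56.6% in neutrophils (43.2% by limma) and 61.9% in TAMs. The median of all genes was -0.12 log2 units in TAMs by limma and -0.03 with that scaling. Tumors with at least 20 cells gave no value in neutrophils or TAMs, where leaving out a GC tumor leaves 1, assumed to vary like the controls. No paired analysis was possible because the hashtag numbers only name tumors. With 18 to 111 cells a GC tumor, scarce members such as Bmf and Bbc3 were near the limit of detection.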
